A study of Mus musculus with 24 samples.

Results

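A set of 9 complement genes was followed across adipose tissue of mice with and without an amino acid change in STAT5B: C3, C4b, C1qa, C1qb, C1qc, Cfb, C2, Cfp and C3ar1. They were taken by symbol, and all 9 of 9 were found among the 24421 gene symbols counted in each of 24 libraries. Total RNA had been sequenced from adipose tissue of C57BL/6 mice at 2 months of age, in 6 groups of 4 libraries. WT males and WT females carried unchanged STAT5B, a transcription factor that relays cytokine and growth hormone signals. The other groups were males and females of the genotype STAT5B-Y665F, a tyrosine replaced by phenylalanine, and males and females of the genotype STAT5B-Y665H, the same tyrosine replaced by histidine. All groups share strain, age and the tissue label (adipose), and no treatment is given. The labels state neither whether 1 or both alleles carried the change nor which fat depot was taken. Whether males and females gave the same depot is thus unknown, and sex and depot cannot be told apart in the comparisons of the sexes. The labels also do not say in words that each library is a separate animal. The p-values below therefore measure the spread between these libraries.

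Complement is a cascade of plasma proteases and their substrates that tags surfaces and recruits immune cells. In the classical pathway, C1q binds antibody or other patterns, and its associated proteases cleave C4 and then C2, which together form an enzyme that cleaves C3. In the alternative pathway, C3 fragments bind factor B, factor D cuts it, and properdin holds the resulting enzyme together. Liver makes most plasma complement. Adipose tissue is known for factor D, also called adipsin, which adipocytes secrete, and tissue macrophages are the main source of C1q. C3a, the small fragment released from C3, acts on the receptor encoded by C3ar1.

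Depth was 21.0 to 41.3 M gene counts per library (median 34.6 M, with M for 1000000), and levels are counts per M gene counts (CPM). The 9 genes together took 0.165 to 0.872% of the gene counts of a library, and a count of 0 would allow at most 0.073 to 0.143 CPM. Counts were lowest for C3ar1, down to 335 in Y665H female 4, so counting error weighs more for C3ar1 than for C3 or C4b. Adipocyte genes were abundant in all libraries: 10 of 10 stood at 1 CPM or more in every library, and their sum ran from 9073 to 32620.1 CPM. Some libraries stood apart. In WT male 2 the 10 adipocyte genes summed to 9073 CPM, the lowest of all, and 6 epididymis genes summed to 11072 CPM, against 3772 in WT male 3, 1436 in WT male 4 and 1.12 in WT male 1. That sum was 429, 0.0251, 0.381 and 1086 CPM in Y665F males, 12.7, 1.67, 1785 and 188 CPM in Y665H males, and at most 0.721 CPM in females. In Y665F female 3 the adipocyte sum was 14423 CPM, the lowest among females, and 6 epithelial genes summed to 1092 CPM, against at most 169.8 in the other females. Of 6 listed liver genes, the group means of Apoa1 and Ttr were at most 0.249 and 1.34 CPM, those of Serpina1c and Fga at most 5.45 and 6.11 CPM, and that of Alb 2.57 to 12.4 CPM. Cyp2e1 averaged 512 to 2290.4 CPM and made up most of that list's sum, 414 to 3559 CPM per library.

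Per length, C3 had the highest mean of the 9 in each group, by a wide margin over C4b in females and a narrower one in males. Divided by the annotated exon length, C3 averaged 671 to 1061 CPM per kb in the female groups and 258 to 337 in the male groups. C4b averaged 117 to 258 CPM per kb in females and 181 to 278 in males. Over the 6 groups C1qb averaged 77.9 to 154 CPM per kb and C1qa 63.6 to 117. Cfb averaged 58.5 to 110 CPM per kb, C2 33.2 to 48.5, C1qc 30 to 48.9, Cfp 19.3 to 41.1 and C3ar1 2.96 to 6.47. On the same scale, factor D (Cfd, no member of the 9) averaged 2246 to 8915 CPM per kb. On the CPM scale the highest group mean exceeded the lowest 4.11-fold for C3, 2.37-fold for C4b, 2.18-fold for C3ar1 and 2.12-fold for Cfp. It did so 1.98-fold for C1qb, 1.88-fold for Cfb, 1.85-fold for C1qa, 1.63-fold for C1qc and 1.46-fold for C2. When the 6 groups were ordered by mean, nearly all neighbours overlapped in range. The exceptions were C3, where every WT female library exceeded every Y665H male library, and C3ar1, where every Y665F female library exceeded every WT female library.

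**Figure D1:**
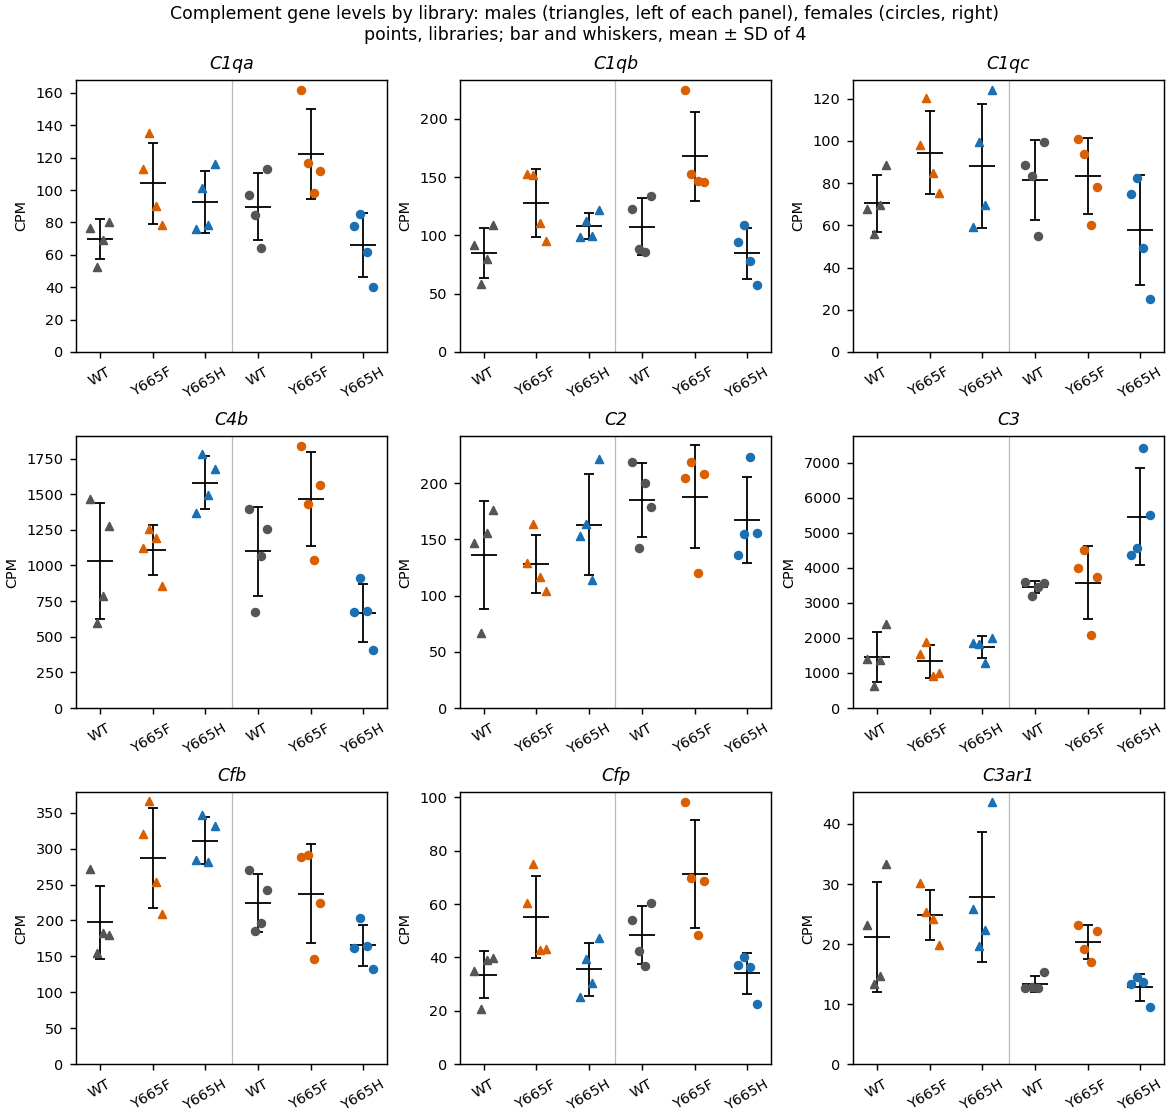
CPM of each of the 9 genes in each library (points), with mean ± SD of 4 libraries, for males (triangles, left) and females (circles, right) of the 3 genotypes. C3 ranges from 629 CPM in WT male 2 to 7418 CPM in Y665H female 3, and all females but Y665F female 3 lie above all males.

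The genes lie on 4 chromosomes of the mouse build GRCm38 and all are protein coding on the minus strand (GENCODE M21). C1qb (chr4:136880129-136886187), C1qc (chr4:136889804-136893065) and C1qa (chr4:136895917-136898803) are neighbours, 3616 and 2851 bases apart. C4b (chr17:34728380-34743882), Cfb (chr17:34856374-34862518) and C2 (chr17:34862604-34898265) lie in the major histocompatibility region, with 85 bases between Cfb and C2. C3 lies elsewhere on the same chromosome (chr17:57203970-57228136), Cfp on the X chromosome (chrX:20925454-20931555) and C3ar1 on chromosome 6 (chr6:122847138-122856161). Several counts are uncertain. C4b has a near-identical copy, C4a, that was counted at no more than 1.65 CPM (group means), and reads shared by both could have been split or dropped. C2 overlaps Zbtb12 on the opposite strand (at most 13.1 CPM), and the annotated gene Gm20547 runs across Cfb and C2 on their own strand.

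The RefSeq table of promoter sequences (GRCm38.p6) matched 5 of the 9 members: C1qb, C1qc, C3, C3ar1 and Cfp. C1qa, C4b, Cfb and C2 have no entry. Shown are the neighbours C1qb and C1qc, whose shares of C1q counts are compared below, and C3, the member with the highest means. Each sequence covers 250 bases before and 30 bases after the start that RefSeq gives, 5′ to 3′ on the gene's own strand (minus), at chr4:136886171-136886450 for C1qb, chr4:136892885-136893164 for C1qc and chr17:57228107-57228386 for C3. Capitals mark ACTTCCT in C1qb and C1qc, which reads AGGAAGT on the opposite strand (the core of many ETS factor sites), and TATAAA in C3. The RefSeq start is the GENCODE start for C3, but for C1qc the GENCODE start lies 151 bases upstream of it, so part of that window is inside the gene as GENCODE has it.
C1qb: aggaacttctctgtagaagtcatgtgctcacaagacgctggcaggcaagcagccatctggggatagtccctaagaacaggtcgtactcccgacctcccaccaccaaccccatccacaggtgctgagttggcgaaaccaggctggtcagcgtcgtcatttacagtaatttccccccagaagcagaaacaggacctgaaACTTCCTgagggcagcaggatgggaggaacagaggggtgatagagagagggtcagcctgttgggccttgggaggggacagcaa
C1qc: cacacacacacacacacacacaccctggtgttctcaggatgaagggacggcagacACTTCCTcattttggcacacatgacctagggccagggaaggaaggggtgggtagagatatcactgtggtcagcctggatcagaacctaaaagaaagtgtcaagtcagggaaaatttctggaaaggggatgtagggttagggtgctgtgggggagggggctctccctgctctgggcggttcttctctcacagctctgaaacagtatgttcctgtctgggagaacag
C3: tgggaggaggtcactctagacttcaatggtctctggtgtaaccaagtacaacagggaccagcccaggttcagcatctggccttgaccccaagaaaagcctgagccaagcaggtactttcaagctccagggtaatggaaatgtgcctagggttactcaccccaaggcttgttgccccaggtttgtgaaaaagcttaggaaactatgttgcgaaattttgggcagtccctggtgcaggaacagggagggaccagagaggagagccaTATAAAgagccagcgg
Searched on both strands of 300-base promoters (250 before and 50 after the start), AGGAAGT occurred in 9.35% of 32851 promoters and in 2 of 5 members. This motif was chosen after the sequences had been read. Its match begins at offset -53 from the RefSeq start in C1qb and at -195 in C1qc. TATAAA occurred in 13.6% of promoters and in C3 (at offset 14) and C3ar1 (at offset -235). TTCNNNGAA, the form of many STAT sites, was in 8.3% of promoters but in the window of 0 of the 5 members. None of the matches overlap, and a match describes letters only.

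C3, the protein on which all pathways converge, differed between the sexes in WT and was highest in Y665H females. WT males held 1404, 629, 1378 and 2392 CPM of C3 (libraries 1 to 4). WT females held 3589.8, 3200.2, 3454 and 3554 CPM. Every WT female library lay above every WT male library, and the WT females varied little. C3 was lower in WT males than in WT females by a log2 fold change of -1.41 (SE 0.35), with an adjusted p of 0.0366 in edgeR's quasi-likelihood test. It was the only member of the 9 called in this comparison, in which 13.1% of all tested genes were called (5.95% lower). The direction held when each of the 8 libraries was left out, with log2 fold changes of -1.71 to -1.16, but the call did not. Without WT male 3 the adjusted p was 0.0894, and without WT female 1, 2, 3 or 4 it was 0.0971, 0.0881, 0.0892 and 0.0976. Without WT male 2, the library with the highest epididymis sum, the fold change was -1.16 and the adjusted p 0.02. In bulk tissue, here and in every comparison below, fewer cells of a type and less RNA per cell cannot be told apart.

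The other members gave wider or smaller values between WT males and WT females. Cfp had a log2 fold change of -0.67 (SE 0.24, adjusted p = 0.0881 in edgeR), C2 of -0.59 (SE 0.28, adjusted p = 0.178 in edgeR) and C1qa of -0.51 (SE 0.20, adjusted p = 0.11 in edgeR). C3ar1 pointed the other way, at 0.50 (SE 0.27, adjusted p = 0.229 in edgeR). The median over the 9 members was -0.49, against 0.04 over all genes tested. Of the 9, 3 had an unadjusted p under 0.05, as did 33.5% of all genes. The sexes also differed in marker genes of other cell types and tissues. The progenitor and fibroblast genes (8 of 8 at 1 CPM or more in all libraries) summed to 3345 to 4991 CPM in WT males and to 6212 to 11593 CPM in WT females. Of these 8, 6 were called lower in males, with a median of -0.96, where 5.95% of all genes were called lower. Skeletal muscle genes summed to 14.6 to 18.1 CPM in WT males and to 82.1 to 724 CPM in WT females, with 5 of 6 called lower in males. All 10 adipocyte genes and all 5 endothelial genes lay below 0 in males against females, with medians of -0.72 and -0.5 and 0 called. The part of these lists, of the epididymis genes and of a possible depot difference in the result was not tested.

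In Y665H females C3 stood at 4369.6, 4559, 7418 and 5491 CPM, above each of the 4 WT female libraries. The log2 fold change against WT females was 0.67 (SE 0.16), and its adjusted p of 0.0544 in edgeR missed the threshold. No member was called in this comparison, in which 3.34% of all genes were called. An unadjusted p under 0.05 was found for 4 members and for 23.8% of all genes. DESeq2 called 1 member, C3 itself (adjusted p = 0.000676), and 8.66% of all genes. Other settings applied to all 8 libraries, or to all 24, moved the adjusted p of C3 between 0.000676 and 0.302. Leaving out 1 library at a time moved it between 0.0563 and 0.158. Y665F females held 3986, 4512, 2085 and 3734 CPM of C3, a range that includes all 4 WT females. The log2 fold change of Y665F against WT females was -0.07 (SE 0.24), and it became 0.05 when counts were scaled by library totals and 0.13 without Y665F female 3.

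Against Y665F females, C3 in Y665H females had a log2 fold change of 0.74 (SE 0.28, adjusted p = 0.105 in edgeR), and 3 of the 4 Y665H libraries exceeded all Y665F libraries. In males no genotype stood apart for C3. Y665F males held 1540.1, 1871, 911 and 985 CPM and Y665H males 1840.1, 1818, 1281 and 2003 CPM. All 3 male ranges overlapped. The log2 fold change against WT males was -0.07 (SE 0.42) for Y665F and 0.27 (SE 0.37) for Y665H.

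C4b encodes C4, which the C1 proteases cleave to start the C3-cleaving enzyme, and it followed another order. WT females held 1396, 672, 1069 and 1257 CPM of C4b. Y665F females held 1837, 1431, 1041 and 1562 CPM. Y665H females held 673, 912, 678 and 410.3 CPM, below all 4 Y665F females. C4b was lower in Y665H than in Y665F females, by a log2 fold change of -0.99 (SE 0.27, adjusted p = 0.0367 in edgeR). Against WT females the values were -0.70 (SE 0.27, adjusted p = 0.161 in edgeR) for Y665H and 0.29 (SE 0.25, adjusted p = 0.487 in edgeR) for Y665F.

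In males C4b was highest in Y665H. Y665H males held 1369, 1780.2, 1497 and 1679 CPM of C4b. Y665F males held 1125, 1259, 1193 and 854 CPM, all below the Y665H males. WT males held 1467, 598, 787 and 1276 CPM, a range that overlapped both mutants. The log2 fold change of Y665H against Y665F males was 0.46 (SE 0.18, adjusted p = 0.223 in edgeR), and of Y665H against WT males 0.62 (SE 0.31, adjusted p = 0.402 in edgeR).

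The opposite signs of C4b in the sexes were tested as an interaction. The Y665H against Y665F difference was 1.44 higher on the log2 scale in males than in females (SE 0.34, adjusted p = 0.0632 in edgeR), and C4b was not called. None of the 9 members was called in this interaction, with 0.868% of all genes called. Of the 9, 1 member had an unadjusted p under 0.05, as did 15.3% of all genes. DESeq2 called C4b (adjusted p = 0.00154) and 3.16% of all genes. With library totals edgeR called C4b (adjusted p = 0.0259) and 2.07% of all genes. Taken against WT, the interaction of Y665H for C4b was 1.32 (SE 0.43, adjusted p = 0.173 in edgeR), and none of the 9 was called, with 0.0119% of all genes called. Here 4 members and 18.3% of all genes had an unadjusted p under 0.05, and DESeq2 called C4b (adjusted p = 0.0455) and Cfb (adjusted p = 0.00962). DESeq2 called 3.4% of all genes in this interaction. Without WT male 1, edgeR called both as well, C4b at 1.62 (adjusted p = 0.0267) and Cfb at 1.35 (adjusted p = 0.00552). In that fit 10.7% of all genes were called. In the interaction of Y665F with sex, 0 members were called, 0 had an unadjusted p under 0.05 and DESeq2 called 0. Of all genes, edgeR called 0%, 21.8% had an unadjusted p under 0.05 and DESeq2 called 5.67%.

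C1qa, C1qb and C1qc encode the 3 chains of C1q, the recognition protein of the classical pathway. C1qb stood at 225, 153, 147 and 146 CPM in Y665F females. The 4 WT female libraries held 123, 87.9, 85.3 and 134 CPM, and the 4 Y665H female libraries 94, 109, 78.3 and 57.7 CPM. All Y665F females lay above all other females. C1qb was lower in Y665H than in Y665F females, by a log2 fold change of -0.83 (SE 0.23, adjusted p = 0.0386 in edgeR). Y665F against WT females gave 0.51 (SE 0.20, adjusted p = 0.155 in edgeR) and Y665H against WT females -0.32 (SE 0.22, adjusted p = 0.397 in edgeR).

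C1qa averaged 122 ± 27.7 CPM in Y665F females and 66.1 ± 20 in Y665H females, against 89.6 ± 20.7 in WT (SD, n = 4). The Y665H and Y665F females did not overlap, with a log2 fold change of -0.73 (SE 0.26, adjusted p = 0.0853 in edgeR). C1qc averaged 83.2 ± 18 CPM in Y665F females, 81.5 ± 19 in WT and 57.8 ± 26.1 in Y665H. These ranges overlapped, and the log2 fold change of Y665H against Y665F was -0.37 (SE 0.36, adjusted p = 0.496 in edgeR).

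In males the C1q genes were lowest on average in WT. C1qb averaged 84.8 ± 21.3 CPM in WT males, 128 ± 29.2 in Y665F males and 108 ± 11 in Y665H males (SD, n = 4). C1qa averaged 69.6 ± 12.4, 104 ± 25 and 92.6 ± 19.1 CPM, and C1qc 70.5 ± 13.6, 94.5 ± 19.5 and 88 ± 29.4 CPM, in the same order. For Y665F against WT males the log2 fold changes were 0.64 (SE 0.22) for C1qa, 0.65 (SE 0.25) for C1qb and 0.48 (SE 0.20) for C1qc, with adjusted p of 0.252, 0.26 and 0.282 in edgeR. Every one of these ranges overlapped.

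The 3 chains are assembled together, so their balance was examined as a share of their summed counts, a measure chosen after the values had been seen. C1qa kept a group mean of 31.1 to 32.7% in all 6 groups. C1qc took 20.6, 25.8, 19.7 and 23.2% in Y665F females. It took 28.8, 32.5, 26.9 and 28.7% in WT females. C1qb took 46.2, 42, 48.2 and 43.5% in Y665F females and 39.8, 34.4, 41.8 and 38.6% in WT females. Neither gene's shares overlapped between these groups. The difference was -6.86 percentage points for C1qc and 6.32 for C1qb, each with p = 0.0286 in a two-sided exact permutation test, the smallest that 4 against 4 libraries can give. Adjusted over the 21 comparisons of shares, both gave 0.3 and missed the threshold. With 1 library left out the difference ran from -8.02 to -5.76 for C1qc and from 4.89 to 7.37 for C1qb. Y665H females lay between, with a mean C1qc share of 26.6 ± 4.61% (SD, n = 4), and library 4, at 20.3%, within the Y665F range.

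**Figure D2:**
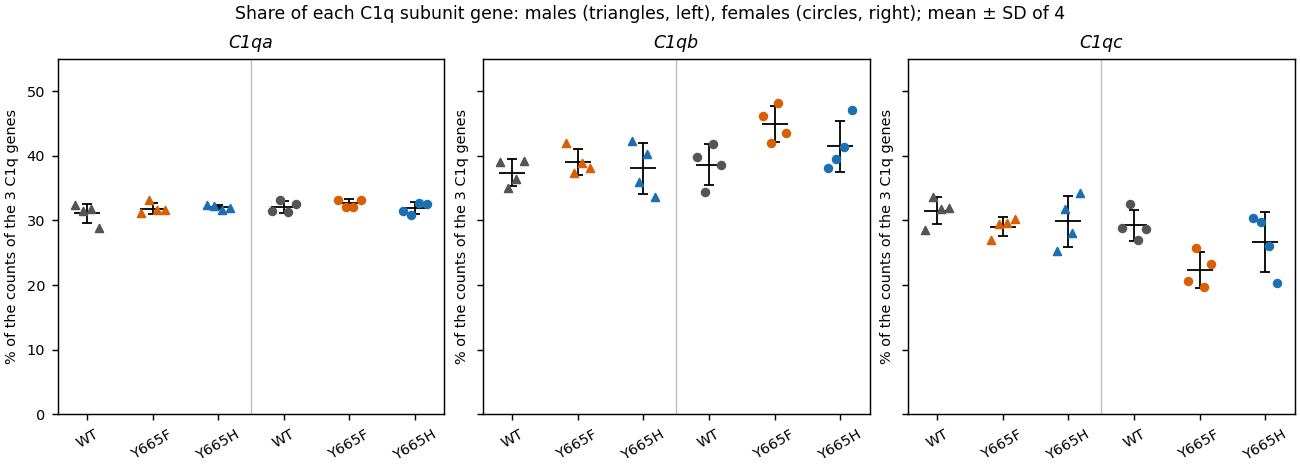
Share of C1qa, C1qb and C1qc in the summed counts of the 3 genes, in percent, per library (points), with mean ± SD of 4, males as triangles on the left and females as circles on the right. C1qa averages 31.1 to 32.7% in every group, while Y665F females hold 19.7 to 25.8% C1qc against 26.9 to 32.5% in WT females.

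C2 encodes the protease partner of C4, and its group means were the closest of the 9 as a ratio of highest to lowest. Among females C2 averaged 185 ± 33 CPM in WT, 188 ± 45.5 in Y665F and 168 ± 38.1 in Y665H (SD, n = 4). Among males it averaged 136 ± 48.3, 129 ± 25.7 and 163 ± 44.7 CPM in the same order. All groups overlapped, and the log2 fold changes between genotypes within a sex ran from -0.13 to 0.29. The lowest library was WT male 2, at 66.4 CPM.

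Cfb encodes factor B, the counterpart of C2 in the alternative pathway. Y665H males held 284, 347, 282 and 331 CPM of Cfb. WT males held 272, 155, 182 and 180.5 CPM, all below the Y665H males. The log2 fold change was 0.66 (SE 0.21), with an adjusted p of 0.402 in edgeR. Y665F males held 319.8, 367, 254 and 209 CPM, with 0.59 against WT (SE 0.26, adjusted p = 0.297 in edgeR). Among females the lowest mean was in Y665H, with libraries at 162, 203, 164 and 132 CPM, against 271, 185, 196 and 243 CPM in WT. Y665F females held 289, 291, 146 and 224 CPM, and all 3 female ranges overlapped. Y665H against WT gave -0.42 (SE 0.16, adjusted p = 0.146 in edgeR). The interaction of Y665H with sex for Cfb, males minus females, was 1.08 (SE 0.28, adjusted p = 0.107 in edgeR).

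Cfp encodes properdin, which stabilises the alternative pathway's C3-cleaving enzyme and is made mainly by myeloid cells. Y665F females held 98.1, 69.7, 48.5 and 68.8 CPM of Cfp. Y665H females held 37, 40, 36.3 and 22.7 CPM, all below the Y665F females. Cfp was lower in Y665H than in Y665F females, by a log2 fold change of -0.92 (SE 0.25, adjusted p = 0.0381 in edgeR). WT females, at 53.9, 42.5, 36.7 and 60.4 CPM, overlapped both. In males Y665F held 60.3, 74.9, 42.7 and 43.3 CPM and WT 35.1, 20.5, 39.1 and 39.7 CPM, without overlap. This gave 0.78 (SE 0.28), with an adjusted p of 0.253 in edgeR. Y665H males, at 25, 39.5, 30.4 and 47.4 CPM, had -0.69 against Y665F males (SE 0.26, adjusted p = 0.209 in edgeR).

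C3ar1, the C3a receptor gene, was the least abundant member. Y665F females held 23.1, 19.2, 17 and 22.2 CPM of C3ar1. WT females held 12.6, 12.9, 12.6 and 15.4 CPM, and Y665H females 13.4, 14.5, 13.7 and 9.51 CPM. Every Y665F female lay above every other female. Against WT the log2 fold change was 0.48 (SE 0.13, adjusted p = 0.084 in edgeR), and DESeq2 gave an adjusted p of 0.0248. Y665H against Y665F females gave -0.53 (SE 0.17, adjusted p = 0.0635 in edgeR). Males overlapped across genotypes, with means of 21.1 ± 9.17 CPM in WT, 24.9 ± 4.19 in Y665F and 27.9 ± 10.8 in Y665H (SD, n = 4).

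Counted over the 9 members, calls were few. Y665H against Y665F females gave 3 calls, all lower in Y665H (C4b, C1qb and Cfp), where 17.4% of all genes were called and 8.59% were called lower. The median log2 fold change of the members was -0.53, against -0.03 over all genes. Of the 9, 6 had an unadjusted p under 0.05, as did 33.4% of all genes. Without Y665F female 3, the library with the highest epithelial sum among females, 5 members were called, with Cfb at -0.57 (adjusted p = 0.0426) and C3ar1 at -0.62 (adjusted p = 0.0279) added. Without Y665F female 1, 2 or 4, or Y665H female 1, 3 or 4, 0 members were called, and without Y665H female 2 there were 2. Of all genes, 18.1% were called without Y665F female 3 and 13.2% without Y665H female 2. In the fits with 0 member calls, 9.89 to 14.1% of all genes were called. The direction of C4b, C1qb and Cfp held in all 8 cases, with ranges of -1.16 to -0.81, -0.96 to -0.64 and -1.08 to -0.72.

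Y665F against WT females gave 0 calls among the members in edgeR, 2 members with an unadjusted p under 0.05 and 1 call in DESeq2, where edgeR called 3.33% of all genes. Of all genes, 26.3% had an unadjusted p under 0.05 and DESeq2 called 9.96%, so these counts lie near the background. The members' median was 0.29, against 0.02 over all genes. For Y665F against WT males these were 0 calls, 4 members with an unadjusted p under 0.05 and 0 calls in DESeq2, with 0% of all genes called by edgeR and a median of 0.48 against -0.04. Of all genes, 17.1% had an unadjusted p under 0.05 and DESeq2 called 5.63%. For Y665H against WT males there were 0 calls, 1 member with an unadjusted p under 0.05 and 0 calls in DESeq2, with 0% of all genes called by edgeR and a median of 0.36 against -0.05. Of all genes, 11.4% had an unadjusted p under 0.05 and DESeq2 called 0.581%. All 9 members had a log2 fold change above 0 in that comparison. For Y665H against WT females 8 of 9 members lay below 0, with a median of -0.42 against 0 over all genes. Y665H against Y665F males gave 0 calls, 2 members with an unadjusted p under 0.05 and 0 calls in DESeq2, with 1.03% of all genes called by edgeR and a median of 0.06 against -0.02. Of all genes, 18.0% had an unadjusted p under 0.05 and DESeq2 called 5.27%. In the comparisons of Y665F and of Y665H with WT males, the 5 tested epididymis genes all lay below 0, with medians of -3.9 and -3.6 and 0 called, and their part in the members' values was not tested. Comparisons with the same WT or Y665F libraries share them and are not independent.

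**Figure D3:**
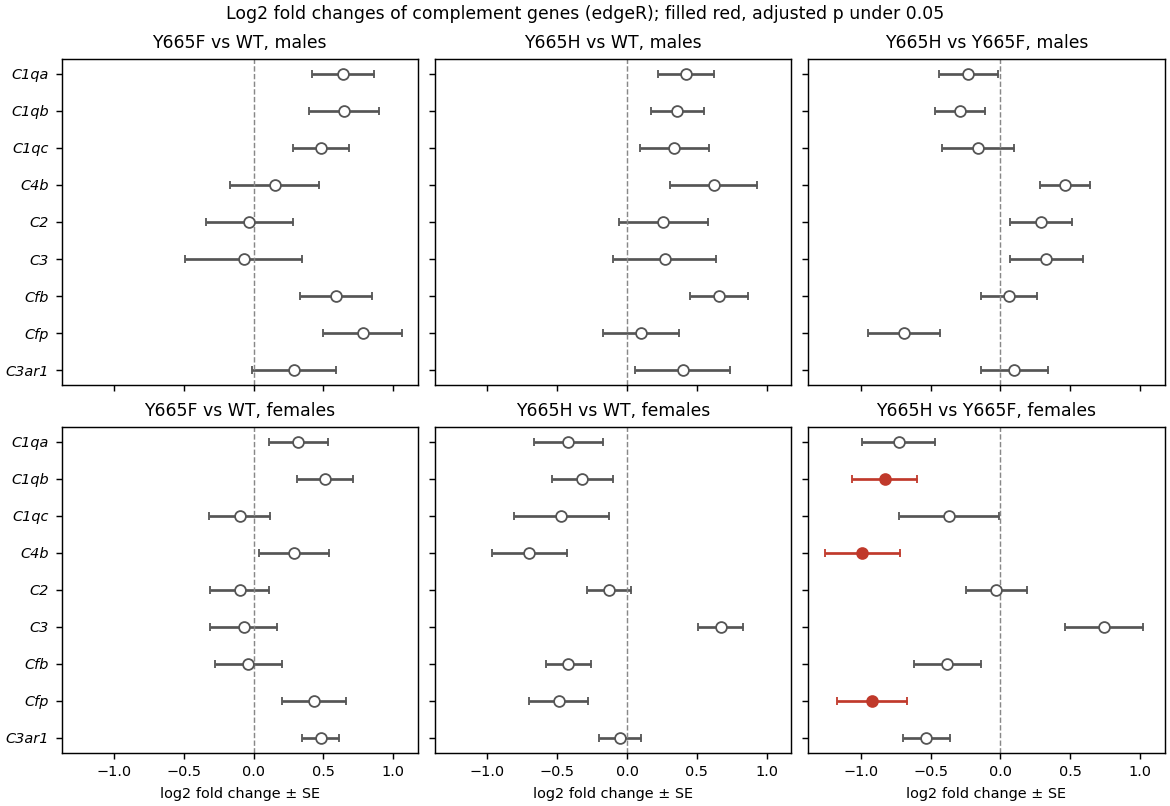
Log2 fold change ± SE of the 9 genes (edgeR) for the 3 genotype comparisons in males (top) and females (bottom), with filled red points at an adjusted p under 0.05. The 3 filled points are C1qb, C4b and Cfp in Y665H against Y665F females, at -0.83, -0.99 and -0.92, while C3 in the same panel lies at 0.74.

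Macrophage genes moved beside these members. All 12 listed macrophage genes stood at 1 CPM or more in every library, and their sum in females was 890.1 to 1225 CPM for WT, 1288 to 2042 for Y665F and 705 to 974 for Y665H. In Y665H against Y665F females, 17.4% of all genes were called, 8.59% lower. Of the 12 macrophage genes, 7 were called lower there, 0 higher, with a median of -0.53. In Y665F against WT females 3.33% of all genes were called. Of the 12 macrophage genes, 2 were called higher there and 0 lower, with 10 above 0, 2 below 0 and a median of 0.47. Their sum in males was 668 to 1259 CPM in WT, 1159 to 1799 in Y665F and 1164 to 1638 in Y665H. Set against this sum, the 3 C1q genes together made 0.217 to 0.27 of it as a group mean, with libraries from 0.174 to 0.295. Skeletal muscle genes were called higher for 3 of 6 in Y665H against Y665F females, with a median of 4.32. Their sum was 16.8, 106, 1184 and 361 CPM in Y665H females, highest in library 3, which also held the most C3, and 27.7 to 166 CPM in Y665F females. Adipocyte genes, a list that includes Cfd, lay above 0 for 9 of 10 in Y665H against Y665F females, with 2 called higher and a median of 0.47. In Y665F against WT females all 10 lay below 0, with a median of -0.42 and 0 called. The part of the macrophage, muscle and adipocyte genes in the results for C1qb, Cfp, C4b and C3 was not tested. T and NK cell genes were called higher for 7 of 9 in Y665F against WT females, and lower for 5 of 9 in Y665H against Y665F females. B cell genes were called lower for 6 of 6 in the latter.

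**Figure D4:**
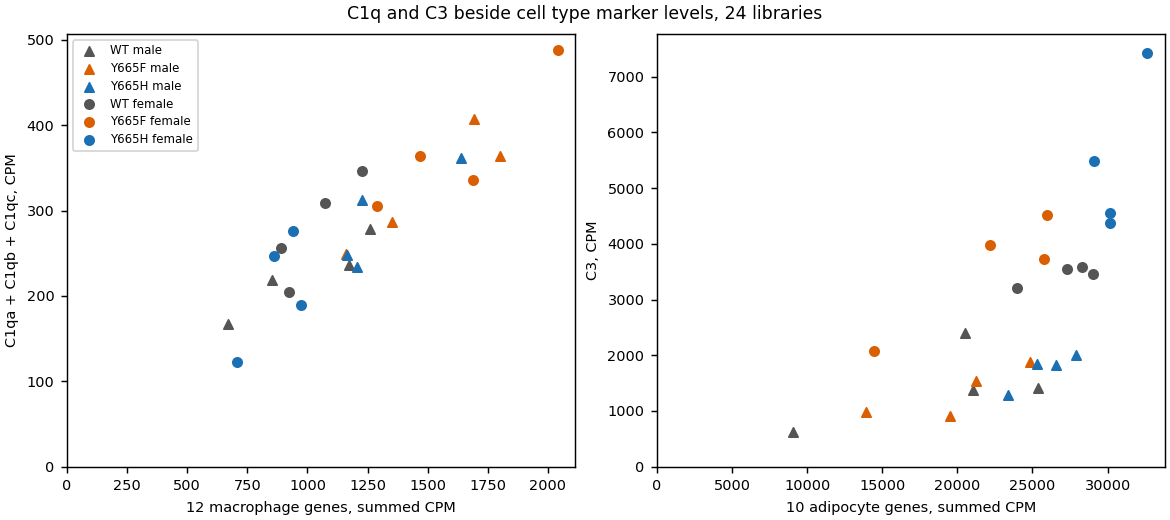
Left, summed CPM of the 3 C1q genes against summed CPM of 12 macrophage genes. Right, C3 CPM against summed CPM of 10 adipocyte genes, with 1 point per library by group. C1q sums follow the macrophage sums in both sexes, while C3 lies higher in females than in males at like adipocyte sums.

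Across the 24 libraries the members fell into different patterns, given here as Pearson's r of log2(CPM + 1). The libraries share groups and sexes, so r is also given for deviations from group means. C1qa and C1qb had r = 0.95 (0.93 for deviations), C1qa and Cfp 0.90 (0.93) and C4b and Cfb 0.81 (0.79). C3 had r = 0.74 with C2 (0.90 for deviations), and -0.13 with C4b (0.50) and -0.38 with C3ar1 (0.60). The low values of C3 across all libraries thus went with positive values within groups. Against the mean of the macrophage genes, C1qb had r = 0.88 (0.90), C1qa 0.87 (0.82), C4b 0.84 (0.80), C3ar1 0.84 (0.90) and C3 -0.08 (0.68). Against the adipocyte genes, a list that includes Cfd, C2 had r = 0.79 (0.85), C3 0.66 (0.76), Cfb 0.39 (0.77), C4b 0.30 (0.73) and Cfp 0.28 (0.70). C3 had its highest r with the progenitor and fibroblast genes, 0.83 over all libraries and 0.27 for deviations.

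**Figure D5:**
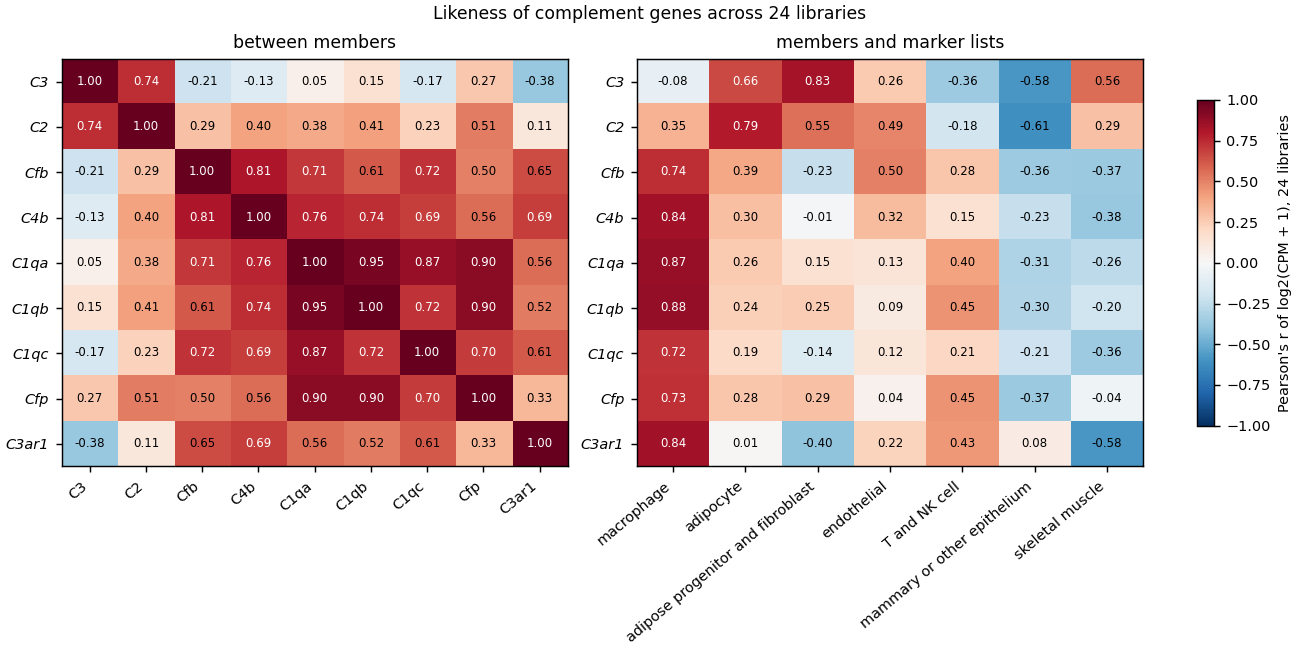
Pearson's r of log2(CPM + 1) over 24 libraries, between the 9 genes and between them and the marker lists. C1qa, C1qb and Cfp form a block with values of 0.90 and above, whereas C3 lies between -0.17 and 0.15 with the C1q genes and at 0.74 with C2.

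A mean of at least 1 CPM in at least 1 group was reached by 16148 genes, the 9 members included. Among those that are not members, the genes most like each member were listed by the same r. For C3 they were Gpam (r = 0.94) and Acsl1 (0.94), enzymes of glycerolipid synthesis and fatty acid activation, and Fam131b (0.93). For deviations from group means, r with C3 was 0.73 for Gpam and 0.79 for both Acsl1 and Fam131b. For the other genes of this paragraph, r of deviations ran from 0.77 (Shisa5) to 0.94 (Pf4). Gpam averaged 578 CPM in WT females, 774 in Y665H females and 293 in WT males. For the mean of the C1q genes they were the chemokine genes Pf4 (0.95), Ccl6 (0.92) and Ccl9 (0.91). Among females Ccl6 averaged 66.4 CPM in WT, 112 in Y665F and 35.8 in Y665H. For Cfp they were Ccl6 (0.93), Slc13a3 (0.92) and Siglec1 (0.88), and for C3ar1 Arl11 (0.94), Lilrb4a (0.92) and Igsf6 (0.92). For C4b they were Sncg (0.88), Nnat (0.85) and Shisa5 (0.84). For Cfb they were Anxa1 (0.92), Fzd4 (0.91) and Pxdc1 (0.91), and for C2 Bnip3 (0.91), Abcb1b (0.87) and Lrrc58 (0.86).

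The ratio of C3 to C4b counts, given without a test, was higher on average in each female group than in any male group. It was 8.95 ± 3.88 in Y665H females, with libraries from 5 to 13.4. It was 3.35 ± 0.981 in WT females and 2.43 ± 0.508 in Y665F females, and 1.10 ± 0.211 to 1.41 ± 0.471 in the 3 male groups (SD, n = 4). Every Y665H female library lay above every other library, narrowly so for Y665H female 2 at 5 against WT female 2 at 4.76. Among the 6 groups, Y665H females had the highest mean of C3 and the lowest of C4b, so this separation is no separate result. C2 over Cfb counts, the corresponding pair of proteases, was 1.04 ± 0.28 in Y665H females and 0.453 ± 0.0394 in Y665F males, the highest and lowest group means.

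The rest of the pathway was read from a list of 44 other complement genes, of which 31 to 33 passed the filter on low counts. In Y665H against WT females 3 of 32 tested were called, against 3.34% of all genes. Cfd, encoding factor D, was higher, with 8220.1 ± 718 against 4625 ± 701 CPM (SD, n = 4). Its log2 fold change was 0.85 (SE 0.13, adjusted p = 0.021 in edgeR). All 4 Y665H females, at 7346 CPM or more, lay above all WT females, at 5193 CPM or less. Cfi, encoding the protease that inactivates C3b and C4b, was lower at -1.41 (adjusted p = 0.0492 in edgeR), at 0.27 against 0.741 CPM. Itgax, a chain of complement receptor 4, was lower at -1.12 (adjusted p = 0.0304 in edgeR). When libraries were left out 1 at a time, the adjusted p reached 0.0925 for Cfd, 0.153 for Cfi and 0.112 for Itgax. In males Cfd averaged 3892 ± 2012 CPM in WT, 2071 ± 391 in Y665F and 3380.2 ± 993 in Y665H, and was not called.

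In Y665H against Y665F females 8 of the 31 listed genes tested were called, 3 higher and 5 lower, against 17.4% of all genes. Higher were Cfd at 1.29 (adjusted p = 0.00755 in edgeR), the lectin pathway protease gene Masp1 at 1.36 (adjusted p = 0.0126) and Vtn, encoding vitronectin, at 0.93 (adjusted p = 0.0135). Lower were the receptor chains Itgax at -2.44 (adjusted p = 0.00148), Itgb2 at -1.39 (adjusted p = 0.00357) and Itgam at -1.02 (adjusted p = 0.0142), which build complement receptors 3 and 4. Also lower were Cfi at -2.48 (adjusted p = 0.00216) and Clu, encoding the terminal pathway regulator clusterin, at -0.79 (adjusted p = 0.00228). In the fit of all 24 libraries Clu was not called (adjusted p = 0.525). The integrin chains are also general markers of myeloid cells, and 7 of the 12 macrophage genes were called lower in the same comparison. The median over the listed genes tested was -0.07, against -0.03 over all genes.

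In Y665F against WT females 4 of the 32 listed genes tested were called, against 3.33% of all genes. Itgax at 1.31 (adjusted p = 0.0251 in edgeR) and Itgb2 at 0.88 (adjusted p = 0.0485) were higher. Vtn at -1.08 (adjusted p = 0.027) and the receptor gene Cd93 at -0.75 (adjusted p = 0.0467) were lower. All 5 endothelial genes also lay below 0 in this comparison, with a median of -0.47 and 1 called lower. Their part in the result for Cd93 was not tested. Leaving out 1 library raised the highest adjusted p to 0.0772 for Itgax, 0.127 for Itgb2, 0.0824 for Vtn and 0.13 for Cd93. In Y665F against WT males and in Y665H against WT males, 0 of the listed genes were called by edgeR. With an unadjusted p under 0.05 there were 5 and 8 (17.1% and 11.4% of all genes), and DESeq2 called 1 and 0 (5.63% and 0.581% of all genes). In Y665H against Y665F males 1 of 32 tested was called, against 1.03% of all genes. It was the terminal pathway gene C6, at 69.3 against 17 CPM and a log2 fold change of 1.96 (SE 0.23, adjusted p = 0.014 in edgeR). Leaving out 1 library brought its adjusted p to at most 0.0781.

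Between WT males and WT females 6 of the 31 listed genes tested were called, against 13.1% of all genes. Higher in males were C7, a terminal pathway gene, at 317 against 11.3 CPM (log2 fold change 4.67, SE 0.40, adjusted p = 0.00165 in edgeR), Cfi at 2.34 (adjusted p = 0.0377) and Itgax at 1.68 (adjusted p = 0.0282). Lower in males were Cd55 at -1.74 (adjusted p = 0.0109) and Cd59b at -0.99 (adjusted p = 0.0452), both regulators on the cell surface, and the collectin gene Colec12 at -0.79 (adjusted p = 0.0162). When libraries were left out 1 at a time, the adjusted p reached 0.108 for Cfi, 0.119 for Cd59b, 0.0872 for Itgax and 0.0631 for Colec12, and stayed at or under 0.0183 for C7 and 0.0498 for Cd55. Cd59b has a close copy, Cd59a, and its count is uncertain. Epididymis genes reached 11072 CPM in WT males and at most 0.104 CPM in WT females, and their part in these 6 results was not tested. Of the regulators and receptors always listed, Serping1 (the C1 inhibitor) averaged 137 to 230.1 CPM and C5ar1 (a C5a receptor) 15.3 to 24.5 CPM over the 6 groups. Neither was called in any of the 7 comparisons. Their lowest adjusted p were 0.0909 for Serping1 (Y665H against WT females) and 0.0811 for C5ar1 (Y665H against Y665F females). In the 3 interactions 0 of the listed genes were called by edgeR. With an unadjusted p under 0.05 there were 5 of 33 tested for Y665F against WT, 13 of 33 for Y665H against WT and 11 of 32 for Y665H against Y665F, against 21.8, 18.3 and 15.3% of all genes. DESeq2 called 2 in each, against 5.67, 3.4 and 3.16% of all genes.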

How the data were processed

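Total RNA-seq of adipose tissue was available for 24 libraries, mapped to 6 groups of 4 by their titles. Each library has 1 deposited table of whole-number read counts, listed by gene symbol and not normalized. Per the submitters' processing notes, FastQC 0.11.9, Trimmomatic 0.36, STAR, SAMtools 1.9, Picard 2.9.2, HTSeq 0.9.1 and the build mm10 were used; the roles and settings, the annotation and the strand setting are not given in the sources used here. Per the labels' protocols, ribosomal RNA was removed and a stranded kit was used. The 5 entries that name no gene held 24.8 to 39.7% of all counts and were left out, and the ribosomal gene Rn45s held 3.27 to 15.0% of gene counts. No libraries of a group were alike within sampling noise.

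CPM are counts per 1000000 gene counts. Genes were tested with edgeR 4.0.16 (limma 3.58.1, R 4.3.3): quasi-likelihood F test, TMM scaling, filterByExpr, Benjamini-Hochberg adjustment over all tested genes, called at an adjusted p under 0.05. Each of 7 comparisons used its 8 libraries only, and each of 3 interactions with sex used 16. The code was tested on simulated data. Shares of C1q counts were compared by exact permutation. Alternatives were DESeq2 1.42.0, other scalings, no filter on low counts, 1 fit of all libraries, the replicate number as a block, and leaving out each library. Exon lengths and positions come from GENCODE M21. The members and lists were chosen with earlier results of these data known. The text names all members, the other complement genes with the smallest p among those called (at most 6 per comparison, with Vtn in Y665H against Y665F females added after its value was seen), 6 genes always listed (1 of them is not reported here), and for likeness the 3 genes with the highest r.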

Additional observations from a re-analysis of the deposited data

Results flagged for a closer look

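Chance alone would single out about 1 in 20 groups of 4 by the measure used here, in which the gap between an extreme library and its nearest neighbour, over the group's range, exceeds the 95% critical value of Dixon's test. Of 54 groups (9 genes in 6 groups), 3 did. C1qb stood at 225.0 CPM in Y665F female 1, while the other 3 libraries of that group lay between 146 and 153 CPM. C2 stood at 120.2 CPM in Y665F female 3, below the other 3 libraries at 205 to 219 CPM. C3ar1 stood at 15.4 CPM in WT female 4, above the other 3 libraries at 12.6 to 12.9 CPM.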

How the results depend on the processing

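Of the calls among members, the 3 in Y665H against Y665F females became 5 with library totals, 6 with DESeq2 and 1 with the replicate block, where 20.7, 19.5 and 10.2% of all genes were called (block: C1qb, with C4b at an adjusted p of 0.0684 and Cfp at 0.0522). The 1 between WT males and females became 2 with DESeq2 and 0 with the block, where 22.3 and 5.2% of all genes were called. The 0 became 1 for Y665F against WT females with library totals (7.44% of all genes called) and with DESeq2 (9.96%). With DESeq2 it became 1 for Y665H against WT females (8.66%) and 2 for the interaction of Y665H against WT (3.4%). For the interaction of Y665H against Y665F it became 1 with library totals (2.07%) and with DESeq2 (3.16%). Leaving out 1 library at a time gave 0 to 1 member calls for Y665F against WT females, where 0.424 to 4.75% of all genes were called. It gave 0 to 5 for Y665H against Y665F females (9.89 to 18.1%) and 0 to 2 for WT males against females (1.52 to 30.7%). For the interactions it gave 0 to 2 for Y665H against WT (0 to 10.7%) and 0 to 1 for Y665H against Y665F (0.03 to 1.12%). For the other complement genes the counts under DESeq2 were 1 (Y665F against WT males), 5 (Y665H against WT females), 7 (Y665H against Y665F males), 14 (WT males against females), and 2 for each of the 3 interactions. The same fits called 5.63, 8.66, 5.27 and 22.3% of all genes, and 5.67, 3.4 and 3.16% in the interactions. In the fit of all 24 libraries they were 2 (Y665F against WT females), 4 (Y665F against WT males), 0 (Y665H against WT females), 1 (Y665H against WT males), 2 (Y665H against Y665F males) and 13 (WT males against females), where 2.98, 13.2, 1.46, 1.18, 2.33 and 34.9% of all genes were called. Without the low-count filter 2 were called for Y665F against WT females, with 1.91% of all genes. With the block 0 were called for Y665H against WT females and for Y665H against Y665F males (0.207 and 0% of all genes). With library totals 1 was called for the interaction of Y665H against Y665F (2.07% of all genes). Leaving out 1 library gave 0 to 5 for Y665F against WT females, where 0.424 to 4.75% of all genes were called. It gave 0 to 4 for Y665H against WT females (0.128 to 8.12%) and 0 to 2 for Y665H against Y665F males (0.0613 to 1.36%). For WT males against females it gave 2 to 13 (1.52 to 30.7%). For the interactions it gave 0 to 4 for Y665F against WT (0 to 9.84%) and 0 to 8 for Y665H against WT (0 to 10.7%). For that of Y665H against Y665F it gave 0 to 1 (0.03 to 1.12%). The mean level of C3 in WT females was 3721 CPM without Rn45s and 3684 CPM over TMM library sizes, against 3449.

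Several small fold changes changed sign. With library totals, which moved the median of all genes from 0.02 to 0.15 in Y665F against WT females, C3 was 0.05, C1qc 0.03, Cfb 0.08 and C2 0.02. The same scaling gave C3 -0.19, C1qb -0.06 and C2 -0.11 in the interaction of Y665F against WT. C2 was 0.01 in Y665F against WT males both without the filter and with the block. With 1 library left out, Y665F against WT females ran from -0.22 to 0.13 for C3, -0.25 to 0.04 for C1qc, -0.17 to 0.15 for Cfb and -0.21 to 0.07 for C2. Y665F against WT males ran from -0.30 to 0.27 for C3, -0.02 to 0.41 for C4b and -0.23 to 0.11 for C2. Y665H ran from -0.11 to 0.08 for C3ar1 against WT females and from -0.06 to 0.25 for Cfp against WT males. Y665H against Y665F ran from -0.20 to 0.08 for C2 in females, and in males from -0.34 to 0.00 for C1qc, -0.08 to 0.22 for Cfb and -0.18 to 0.21 for C3ar1. The interaction of Y665F against WT ran from -0.23 to 0.31 for C3, -0.33 to 0.13 for C4b, 0.00 to 0.35 for C1qb, -0.15 to 0.21 for C2 and -0.34 to 0.08 for C3ar1, and that of Y665H against Y665F from -0.03 to 0.44 for C1qc. The cause was not tested in any of these cases. Libraries with the same replicate number did not deviate together (correlations from -0.40 to 0.71, not above 0.1 for all 4 numbers in any comparison), so the block carries no known pairing. It changed no other call of a member. Among the other complement genes it also ended the call of Vtn in Y665H against Y665F females (adjusted p = 0.0505) and of Cfi (0.123) and Cd59b (0.0953) between WT males and females.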
